A study of Homo sapiens with 4 samples.

Results

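The genes examined here encode 7 proteins of nuclear speckles that hold the speckle together or couple it to splicing, namely SON, SRRM2, SRRM1, PNN, ACIN1, BCLAF1 and THRAP3. Members were all entries of the transcript table whose gene name was one of these symbols, with every transcript kept, which gave 78 of 75165 transcripts and 7 of 20298 gene identifiers. The libraries came from RNA immunoprecipitation followed by sequencing (RIP-seq), in which a protein is pulled down from cell lysate and the RNA bound to it is sequenced. The protein was YTHDC1, the nuclear reader of N6-methyladenosine (m6A), in MDA-MB-231, a human triple-negative breast cancer line. Of the 4 libraries, 2 were made from RNA recovered with an anti-Flag antibody (IP) and 2 from the nuclear lysate before the pull-down (input). All 4 carried the same background: the cells had received 3x Flag-tagged YTHDC1 by lentivirus at a multiplicity of infection of 4, had been selected with puromycin for 4 days, and were crosslinked with UV light before their nuclei were isolated. The tagged protein was therefore added to the cells' own YTHDC1 in IP and input alike, and a library from cells without it was not analysed here. The tagged protein was driven by the CMV promoter, and the study describes the replicates as biological.

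Nuclear speckles are bodies between the chromatin domains that are rich in splicing factors and polyadenylated RNA. SON and SRRM2 are large, mostly disordered proteins on which the speckle depends for its integrity, and many resident proteins carry stretches of alternating arginine and serine that bind one another. YTHDC1 binds m6A on nuclear RNA, acts on splicing and export, and lies in foci close to speckles.

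The value analysed for each transcript was the authors' mean normalized count over the 4 libraries, IP and input together. It shows to which transcripts of a gene the counting tool assigned reads in the experiment as a whole. Reads that match several transcripts of a gene are divided by a model, so the value of a transcript is an estimate. A difference between IP and input does not show in it, no spread between replicates goes with it, and no test was made. The depth of each library is unknown here. The values are not divided by transcript length, so levels were compared mainly as shares within a gene, and these are shares of reads rather than of molecules. Summed counts, which are not divided by length either, gave the members' share of the table. They also served to choose the genes set beside the members below. The part of transcript length in the shares and in the summed counts was not tested.

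Together the members held 0.397% of the summed mean normalized counts of the table. Their reads lay mostly in transcripts annotated as protein-coding: over the 7 genes the median protein-coding share was 94.05%, with a range from 57.17% in SRRM1 to 99.64% in THRAP3. This held although protein-coding transcripts were only 30 of the 78 listed (38.46%, against 52.26% in the whole table). The remaining entries were 21 retained-intron transcripts, which keep an intron in the annotated model, 19 processed transcripts, which have no annotated open reading frame, and 8 transcripts annotated as targets of nonsense-mediated decay (NMD), which end in a premature stop codon. Of these 48 transcripts of other types, 39 each held under 1% of the counts of their gene. This count is a description, as 15 of the 48 belong to SRRM2 and the same count was not made over all genes.

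**Figure D1:**
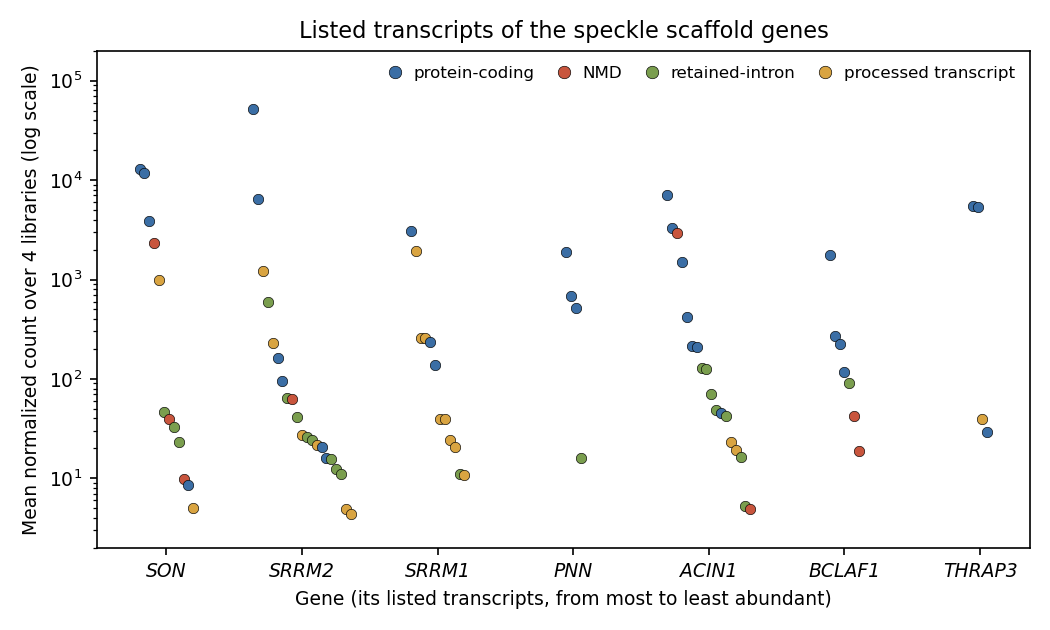
Mean normalized count over the 4 libraries (log scale) of each of the 78 listed transcripts, ordered within each gene from the most to the least abundant and coloured by annotated type. Protein-coding transcripts lead every gene, and the only transcripts of another type above 1000 are SON-208, SRRM2-227, SRRM1-212 and ACIN1-206.

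SON (ENSG00000159140.21, GRCh38 chr21:33543038-33577481), the RNA-binding scaffold of the speckle core, had 12 listed transcripts with a summed mean normalized count of 32152.9. SON-202 had a mean normalized count of 12933.3 and SON-201 of 11850.0, which put 77.08% of the gene's counts into 2 protein-coding transcripts of nearly equal count. SON-203, also protein-coding, followed at 3890.9, or 12.1% of the gene. The NMD transcript SON-208 came next with 2318.3, which was 7.21% of the gene and nearly all of its NMD share of 7.363%. The processed transcript SON-220 had 994.8, and the next transcript, the retained-intron transcript SON-214, was 21.16-fold lower at 47.02. The 3 retained-intron transcripts of SON together held 0.3201% of its counts.

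SRRM2 (ENSG00000167978.17, GRCh38 chr16:2752638-2771412), the other scaffold of the speckle core and a component of active spliceosomes, had the longest list and the least even distribution. Of its 21 listed transcripts, SRRM2-201 alone had a mean normalized count of 52333.1, or 85.11% of a summed 61487.5. The second protein-coding transcript, SRRM2-230, stood 8.042-fold lower at 6507.6. The most abundant transcripts of the other types were the processed transcript SRRM2-227 at 1209.4, the retained-intron transcript SRRM2-214 at 596.8 and the NMD transcript SRRM2-217 at 63.07. In all, 15 transcripts of SRRM2 were not protein-coding and held 3.824% of its counts, and 18 of the 21 were each under 1% of the gene. SRRM2-AS1, the antisense gene named after SRRM2, had 4 listed transcripts with a summed mean normalized count of 129.5. No RefSeq gene span was found to overlap that of SRRM2. The libraries were made with a stranded kit, but whether the counting used strand is not given in the sources used here.

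A usual way to express how evenly reads spread over a gene's transcripts is the effective number of transcripts, the inverse of the summed squared shares, which equals the number of transcripts when all are equal and 1 when a single one holds everything. It was 1.358 for SRRM2 and 3.14 for SON. Both core scaffold genes therefore lay at opposite sides of the members' range: SRRM2 had the lowest value among the members, and SON the second highest.

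Among the proteins linked to splicing and to the exon junction complex, which marks spliced messages upstream of each joined pair of exons, SRRM1 stood apart. SRRM1 (ENSG00000133226.17, GRCh38 chr1:24643302-24673281), a splicing coactivator also known as SRm160, had the lowest protein-coding share of the members at 57.17%, since its 8 processed transcripts held 42.65% of a summed mean normalized count of 6070.3. Most of this came from SRRM1-212, whose mean normalized count of 1939.2 was 31.95% of the gene and second to the protein-coding SRRM1-202 at 3097.2. SRRM1-220 and SRRM1-208, also processed transcripts, had 259.2 and 255.3. These were above the other protein-coding transcripts, SRRM1-201 at 233.9 and SRRM1-222 at 139.1. SRRM1 had no listed NMD transcript, and its single retained-intron transcript, SRRM1-216, had 11.1, or 0.1829% of the gene.

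PNN (ENSG00000100941.9, GRCh38 chr14:39175254-39183220) encodes pinin, which joins RNPS1 and SAP18 in the PSAP complex. It had 4 listed transcripts and 3 of them were protein-coding: PNN-201 at a mean normalized count of 1878.8, PNN-205 at 676 and PNN-202 at 512. They held 99.48% of the gene's counts, and the retained-intron transcript PNN-204 had the rest with 15.93.

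ACIN1 (ENSG00000100813.14, GRCh38 chr14:23058564-23095614) encodes acinus, which takes the place of pinin in the related ASAP complex. Its reads were the most evenly spread of the members, with an effective number of 3.623 over 18 listed transcripts. The protein-coding ACIN1-223 had a mean normalized count of 7113.2 (43.78% of the gene) and ACIN1-205 had 3301.2 (20.32%). The NMD transcript ACIN1-206 came close to the second with 2965.4, or 18.25% of the gene, ahead of the protein-coding ACIN1-202 at 1499.1. ACIN1 therefore had the largest NMD share of the members, at 18.28%, and this rested on 1 transcript, because the only other NMD transcript, ACIN1-214, had 4.917. Its 7 retained-intron transcripts ranged from 5.247 to 128.9, the value of ACIN1-218, and together held 2.687%. The more abundant of its 2 processed transcripts, ACIN1-221, had 23.23, and both together held 0.2611%. The RefSeq span of ACIN1 overlaps that of C14orf119, which had 2 listed transcripts with a summed mean normalized count of 839.9.

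BCLAF1 and THRAP3 are a pair of proteins related in sequence, found together in complexes that act on splicing and on the export and stability of messages. BCLAF1 (ENSG00000029363.17, GRCh38 chr6:136256627-136289846) had a summed mean normalized count of 2543.5 over 7 listed transcripts. BCLAF1-202 had 1779.0, or 69.94% of the gene, and was 6.511-fold above the next protein-coding transcript, BCLAF1-221 at 273.2. BCLAF1-223 had 222.9. The retained-intron transcript BCLAF1-222 had 90.52, which gave BCLAF1 the largest retained-intron share of the members, 3.559%. This rank rested on that 1 transcript, and with a minimum mean normalized count of 100 the share was 0 and ACIN1 had the largest, 1.587%. The NMD transcripts BCLAF1-206 and BCLAF1-218 had 41.9 and 18.82. A processed pseudogene of this gene, BCLAF1P2, was listed with a mean normalized count of 8.936.

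THRAP3 (ENSG00000054118.15, GRCh38 chr1:36207637-36305357) had 4 listed transcripts and a different pattern from BCLAF1. THRAP3-203 at a mean normalized count of 5532.4 and THRAP3-201 at 5389.5 differed by 1.027-fold and together held 99.37% of the gene. The third transcript, the processed transcript THRAP3-202, had 39.78, which was 135.5-fold below THRAP3-201, and the protein-coding THRAP3-204 had 28.95. The counting tool divides reads that match several transcripts of a gene among them by a model, and how much of the near-equal counts of THRAP3-203 and THRAP3-201, or of SON-202 and SON-201, came from shared reads was not tested. THRAP3 had no listed retained-intron or NMD transcript.

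**Figure D2:**
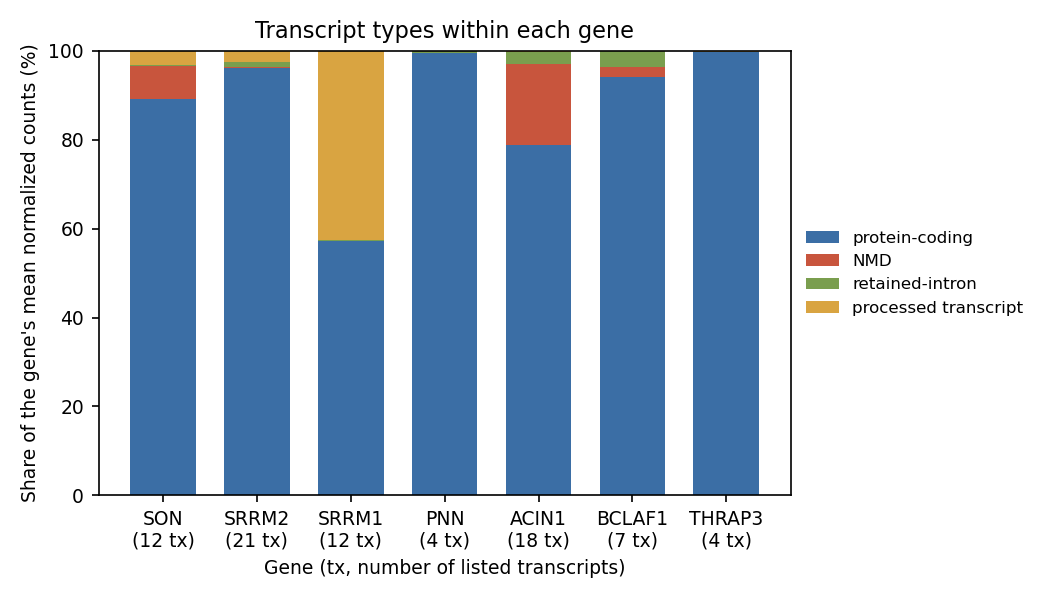
Share (%) of each gene's summed mean normalized count held by its protein-coding, NMD, retained-intron and processed transcripts, with the number of listed transcripts under each name. SRRM1 has 42.65% in processed transcripts, ACIN1 18.28% and SON 7.363% in NMD transcripts, and no gene reaches 5% in retained-intron transcripts.

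To set these shares against other genes, the 4026 protein-coding genes with at least 4 listed transcripts and a summed mean normalized count of at least 1000 were taken as the background, members included. None of the 7 members had 5% or more of its counts in retained-intron transcripts, where 27.7% of the background genes did. An NMD share of 5% or more was found in 2 members, SON and ACIN1, against 24.3% of the background. A processed transcript share of 5% or more was found in 1 member, SRRM1, against 24% of the background. The most abundant transcript held at least 50% of the counts in 5 members, all but SON and ACIN1, against 62% of the background. With 7 members these counts are a description: 1 member is 14.29% of them, and at the background share about 2 members would have reached 5% in retained-intron transcripts. The counts for NMD transcripts, for processed transcripts and for the most abundant transcript each lay within 1 member of the background. The medians of the members and of the background were, in this order, 94.05% and 90.58% for the protein-coding share, 0.5168% and 1.187% for the retained-intron share, 51.02% and 57.04% for the most abundant transcript, and 2.237 and 2.41 for the effective number.

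**Figure D3:**
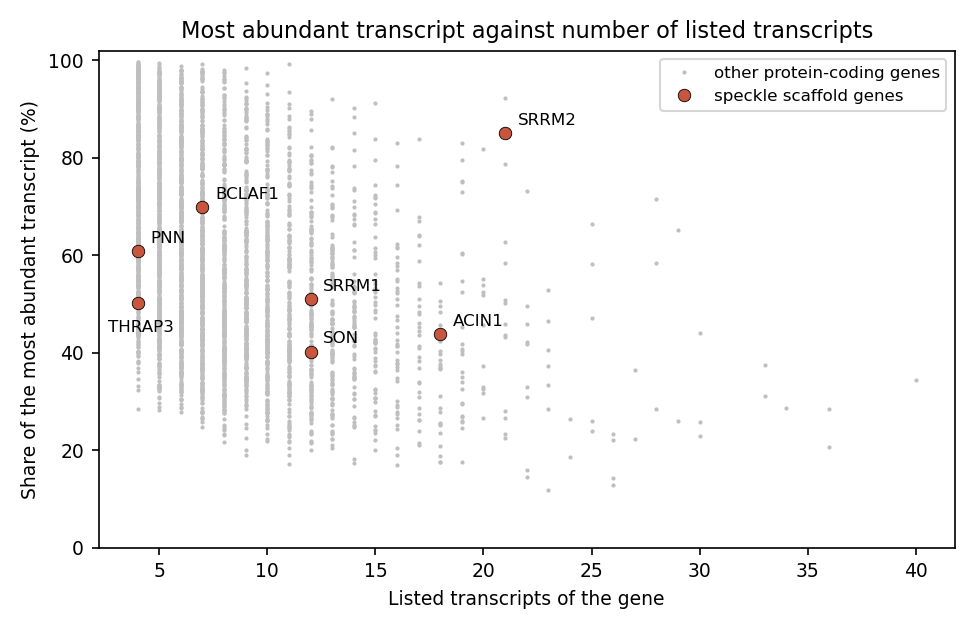
Share (%) of the most abundant transcript against the number of listed transcripts, for the 7 speckle scaffold genes (red, named) and the other background genes (grey). SRRM2 keeps 85.11% in 1 of 21 transcripts, while SON and ACIN1 lie under 50%.

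Since genes with longer lists have more transcripts to share reads, each member was also set beside its own peers, the background genes with at least as many listed transcripts and a summed mean normalized count within 2-fold. The peers' lists had no upper limit, so list length was not matched. No peer had a shorter list than its member and many could have a longer one, above all for PNN and THRAP3 with 4 listed transcripts. The part of list length in the ranks below was not tested. Against its 291 peers, SRRM1 had a processed transcript share above that of 98.28% of them, where the peers' median was 1.38%. The NMD share of ACIN1 was above that of 88.24% of its 34 peers, and that of SON above that of 80.6% of its 67 peers, with peer medians of 2.235% and 0.2228%. The retained-intron share of SON was above that of only 14.93% of its peers, and that of SRRM1 above that of 6.529%. SRRM2 had 6 peers, and its retained-intron share of 1.288% lay below all of them, with a peer median of 6.427%. BCLAF1 was the member whose retained-intron share exceeded that of more than 50% of its peers (54.08% of 1359). Its most abundant transcript held more of the gene than in 82.93% of them. ACIN1, the most even of the members, had an effective number above that of only 41.18% of its peers, with a peer median of 4.36. That of SON was above 62.69% of its peers, with a peer median of 2.782. Their most abundant transcripts held more of the gene than in 58.82% of the peers of ACIN1 and in 20.9% of those of SON. PNN, with 2270 peers, and THRAP3, with 778, had protein-coding shares above 88.06% and 87.53% of theirs. For SRRM2 and BCLAF1 this rank was 83.33% and 74.17%. The protein-coding shares of SON, ACIN1 and SRRM1 lay below their peers' medians, above only 37.31%, 35.29% and 14.78% of their peers.

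The genes most alike in transcript types were found among the same peers by the sum of absolute differences between the shares of the 4 types. APLP2 lay nearest to SON with a sum of 4.116 percentage points, ahead of CEP250 and PSMD2. For SRRM2 the nearest were PKM at 4.866, SPTAN1 and MACF1, and for ACIN1 they were COL13A1 at 13.67, SYNE2 and FLII. CIT lay nearest to SRRM1 at 3.754, with 43.1% of its counts in processed transcripts, followed by PDXK at 9.712 and HP1BP3. BCLAF1 had SH3BP2 at 0.4936, KIF22 and WIZ within 1 percentage point. The nearest genes to PNN (TRIM26, PHLDB2 and BCKDK) and to THRAP3 (UBAP2L, RAI1 and ANXA1) differed by less than 0.05 percentage points, as many genes have nearly all counts in protein-coding transcripts. Of these 21 genes none was another member.

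Other proteins of speckles and of the exon junction complex gave a second setting, in 5 lists with 42 genes, all of which had listed transcripts. Here the medians lay farther apart. None of the 7 members had a protein-coding share under 50%, whereas 17 of the 42 other speckle genes did (40.48%, against 9.091% of the background). The background share of 9.091% is less than 1 member of 7 (14.29%), so a count of 0 members is close to the background. The median protein-coding share was 57.56% in the other speckle genes and 94.05% in the members. The other speckle genes had 5% or more of their counts in NMD transcripts in 26 cases (61.9%) and in retained-intron transcripts in 19 cases (45.24%), against 2 and 0 of the 7 members. The background shares were 24.3% and 27.7%. For NMD transcripts the members, at 28.57%, were therefore close to the background. The difference between the lists was not tested, because genes are not replicates. Of the 42, 28 had at least 4 listed transcripts and a summed mean normalized count of at least 1000, and 12 of these 28 had a protein-coding share under 50%.

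Within these lists the SR proteins, the arginine- and serine-rich splicing regulators, had the lowest median protein-coding share, 44.88%, and 7 of the 12 were under 50%. SRSF2, an activator of exon inclusion that resides in speckles, had 90.39% of its counts in NMD transcripts, against a highest NMD share of 18.28% among the members, in ACIN1. The retained-intron share was 47.15% in TRA2B and 40.66% in SRSF1, against a highest of 3.559% among the members. These were the highest values among the SR proteins. Of the 12, 4 had 5% or more (33.33%, against 27.7% of the background), and SRSF6, SRSF7 and SRSF11 had none. The median retained-intron share was 3.657% in the SR proteins, 7.589% in the kinases and cyclins and 12.7% in the exon junction complex core, against 0.5168% in the members. It was lower in the other speckle-associated proteins, 3.015%, and in RNPS1 and SAP18, 2.824%, and the background median was 1.187%. SRSF11 at 68.62% and TRA2A at 63.03% in processed transcripts were the SR protein genes above SRRM1 in that type. The 11 speckle kinases and cyclins, which include the CLK and SRPK kinases that phosphorylate SR proteins, had a median protein-coding share of 50.15%, from 0.87% in PRPF4B to 99.64% in SRPK2.

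RNPS1 and SAP18, which assemble with PNN or ACIN1, had protein-coding shares of 94.35% and 99.04%, beside 99.48% in PNN and 78.77% in ACIN1. Neither had a listed NMD transcript, and RNPS1 had 5.648% in retained-intron transcripts, above every member. In the exon junction complex core, EIF4A3, the helicase that clamps the complex to RNA, had 87.3% in protein-coding transcripts, which was the median of that list. RBM8A had 91.94%, and MAGOH, with a summed mean normalized count of 277.2, had 100%. CASC3 had 40.05% and MAGOHB, with a summed mean normalized count of only 98.74, had 37.54%.

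**Figure D4:**
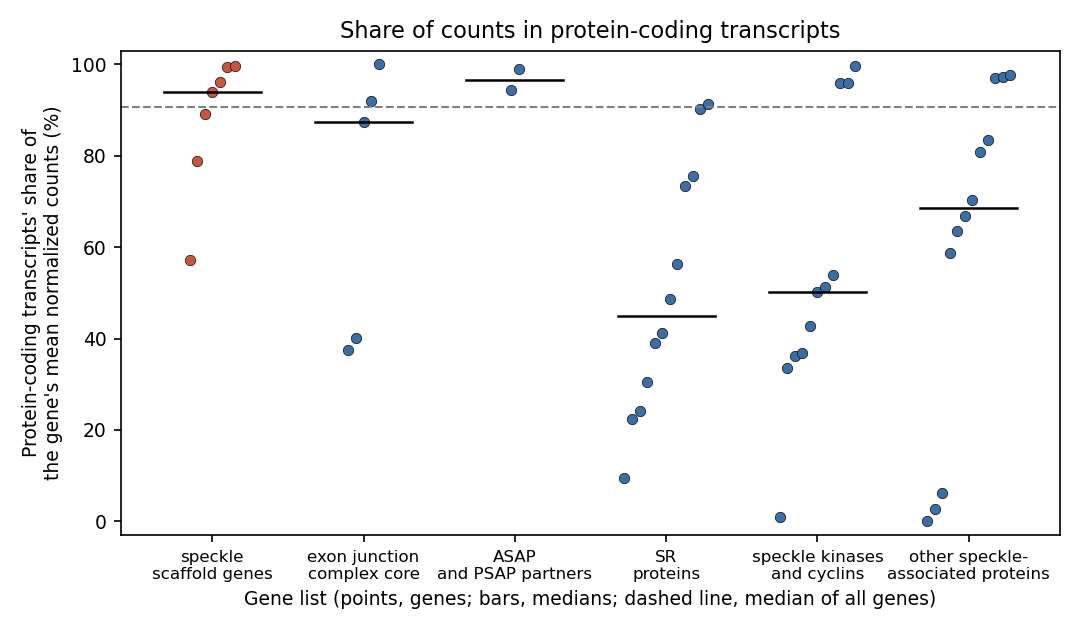
Protein-coding transcripts' share (%) of each gene's summed mean normalized count in the speckle scaffold genes (red) and 5 lists of other speckle genes (blue); each point is a gene, bars are medians, and the dashed line is the background median of 90.58%. All 7 scaffold genes lie above 50%, where 9.091% of the background lies under it, and the SR proteins have the lowest median, 44.88%.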

How the data were processed

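RIP-seq was made from 2 IP and 2 input libraries. Per the submitters' processing notes, FastQC 0.11.5, STAR 2.7.2b, RSEM 1.2.31 and DESeq2 were used with GRCh38. The deposited table lists transcripts with a mean normalized count, a signal value which the authors averaged over all 4 libraries, and no count per library was analysed here. Its lowest mean was 2.716, and, per the study's methods, a transcript was dropped by the authors unless 50% or more of the libraries had 5 or more reads for it, and batch effects were then corrected with RUVSeq. RNA was depleted of ribosomal RNA and libraries were made with a stranded kit. The other 4 measurement columns hold the authors' comparison of IP with input (log2 fold change, its standard error, p-value and adjusted p-value) and were not used.

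Transcripts were summed by gene identifier, and shares, the inverse Simpson index and medians were computed in Python 3.11.15 (pandas 2.3.3). Every member was described, naming each transcript with at least 5% of its gene and the most abundant of each type, with others named after their values were seen. Named genes of the other speckle lists were likewise chosen after their values were seen. All 7 members matched the gene name table by identifier. Gene spans came from RefSeq (GRCh38.p14). The members and gene lists were chosen with earlier results of these data known, and the background, its marks of 5% and 50% and the peers were chosen after the data were seen. Alternatives were a minimum mean normalized count of 10 or 100, pooling of members, NMD transcripts counted as coding, protein-coding transcripts alone and Shannon entropy. A value moved by more than 1.5-fold was taken as changed, since no interval could be had.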

Additional observations from a re-analysis of the deposited data

How the results depend on the processing

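A minimum mean normalized count of 10 kept 71 of the members' 78 transcripts and moved none of the 53 values recomputed with it by more than 1.5-fold. With a minimum of 100, 35 transcripts were left, and the medians over the 7 members for the NMD, retained-intron and processed transcript shares all became 0, while the counts of members at 5% or more stayed at 0 for retained-intron, 2 for NMD and 1 for processed transcripts. Pooling the members by their counts in place of the median gave 4.12% NMD, 1.093% retained-intron and 3.897% processed transcript shares, and the unweighted mean gave 4.019%, 1.222% and 6.974%. For the protein-coding share, with a median of 94.05%, pooling gave 90.89% and the unweighted mean 87.79%. Without SRRM2 the pooled NMD share was 7.594% and the pooled protein-coding share 86.32%. The pooled protein-coding share of the background was 86.74%, between the members' values with and without SRRM2. Its pooled NMD share of 4.197% also lay between theirs. The pooled shares of the background were 4.729% for retained-intron and 4.288% for processed transcripts, where the members without SRRM2 had 0.9243% and 5.164%. Among protein-coding transcripts alone, SRRM1-202 held 89.25% of SRRM1. Without SON-208 and ACIN1-206 the NMD shares of SON and ACIN1 were 0.1646% and 0.03702%. The unweighted mean, leaving out SRRM2, leaving out these transcripts, and the background without a minimum summed count, which gave 30.79% of genes at 5% or more in retained-intron transcripts, were added after the data were seen.

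No paired analysis was possible because the values used are 1 mean over all libraries. For the same reason leaving out a replicate, another test of IP against input and a filter on its counts were not run. Shares per transcript length and the arginine-serine content of the proteins were not run, as neither lengths nor protein sequences were used here.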

Other observations

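Among the other speckle genes, those with the highest NMD share after PRPF4B (98.25%) and SRSF2 (90.39%) were SREK1 at 63.88%, RSRC2 at 62.78% and CCNL2 at 54.22%, chosen after their values were seen. SREK1 and RSRC2 encode arginine- and serine-rich proteins, and CCNL2 is a cyclin of speckles. Protein-coding transcripts held 6.151%, 2.684% and 36.25% of their mean normalized counts. CDK12 and CDK13, kinases of the RNA polymerase II tail, had protein-coding shares of 95.86% and 95.91%. The median was 94.05% in the speckle scaffold genes and 90.58% in the background.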
